A study of Mus musculus with 4 samples.

Results

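The genes described here are 10 members of the Bcl2 family, chosen by symbol among the 31053 genes counted in single thymic invariant natural killer T (iNKT) cells. They are the anti-apoptotic genes Bcl2, Bcl2l1, Mcl1, Bcl2a1a, Bcl2a1b and Bcl2a1d, the BH3-only genes Bcl2l11 (encoding BIM) and Bid, and the effector genes Bax and Bak1. All 10 were found in the count matrices of all 4 libraries. Cells binding a CD1d tetramer loaded with PBS57 were sorted from thymi of untreated mice aged 8 to 9 weeks on the C57BL/6 strain, either wild type (C57BL/6) or homozygous for a disrupted Hivep3 gene (Hivep3-/-). Each library held the cells of 1 mouse, with 2 mice per genotype, and CD44low and CD44high cells were sorted in a ratio of 50:50, so the shares of immature and mature cells were set in part by the gate. The comparison asks how survival and death genes differ between stages of iNKT development and where HIVEP3, a zinc finger protein, is disrupted in all cells of the animal.

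Cells live while guardians such as BCL-2, BCL-XL (Bcl2l1), MCL-1 and the A1 proteins (Bcl2a1 genes) hold their pro-apoptotic relatives in check. BH3-only proteins such as BIM bind the guardians or engage the effectors, and free BAX or BAK then opens the outer mitochondrial membrane. In the thymus BIM is known for the death of cells whose receptor binds self too strongly, and A1 genes are known targets of NF-kB downstream of the antigen receptor.

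The A1 gene has near-identical copies that lie close together in the mouse genome, and 3 of them are members here. Bcl2a1d lies on chromosome 9 at 88723285 to 88731914 on the minus strand, Bcl2a1a at 88956900 to 88962419 and Bcl2a1b at 89199209 to 89207827, both on the plus strand (mm10, GENCODE vM21). The 5' counts used here start near the transcription start, so sequence upstream of it is shown for each copy, with bases that differ between the copies in capitals (RefSeq, GRCm38.p6, 5′ to 3′ on the strand of the gene).
Bcl2a1a, chr9:88956714-88956855, plus strand: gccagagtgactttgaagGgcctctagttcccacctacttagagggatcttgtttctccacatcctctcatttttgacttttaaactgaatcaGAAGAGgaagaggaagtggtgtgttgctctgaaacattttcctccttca
Bcl2a1b, chr9:89199023-89199164, plus strand: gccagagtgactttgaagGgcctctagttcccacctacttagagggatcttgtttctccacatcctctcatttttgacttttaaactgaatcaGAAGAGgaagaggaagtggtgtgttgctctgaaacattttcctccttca
Bcl2a1d, chr9:88731915-88732050, minus strand: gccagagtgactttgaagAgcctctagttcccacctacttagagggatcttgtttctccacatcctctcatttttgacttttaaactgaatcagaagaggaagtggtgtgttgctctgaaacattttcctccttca
The stretches of Bcl2a1a and Bcl2a1b end 44 bases before the gene starts given above, and that of Bcl2a1d ends at its start. The stretches of Bcl2a1a and Bcl2a1b were identical over 142 bases, and that of Bcl2a1d differed from both at 1 aligned base and lacked 6 bases. The transcripts are close as well. Bcl2a1b and Bcl2a1d differed at 7 of 817 aligned bases (99.1% identity), Bcl2a1a and Bcl2a1d at 10 of 819, and Bcl2a1a and Bcl2a1b at 15 of 817. Of all stretches of 100 bases in each transcript, 68.9% of those of Bcl2a1b, 45.3% of those of Bcl2a1d and 56.5% of those of Bcl2a1a occurred in no other copy. Reads from the remaining stretches fit more than 1 copy. The counts do not show whether such reads were left out or given to a copy, so the share of each copy is uncertain. The UMIs of Bcl2a1a, Bcl2a1b and Bcl2a1d were also summed and tested as 1 gene. Windows from 250 bases before to 50 bases after the start were at hand for all 10 members, 13 windows in all. A match to the NF-kB consensus on either strand lay in 1 of them, a window of Bcl2l1, and in 4.51% of all 32851 windows. No match was found in these windows of the Bcl2a1 copies, which speaks only of those letters.

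Unique molecular identifiers (UMIs) were counted in 48291764 and 31381738 copies in C57BL/6 replicates 1 and 2 and in 40096012 and 35718171 in Hivep3-/- replicates 1 and 2. After filtering, 7231, 3651, 4598 and 4167 cells remained in that order, and between 18 and 43 barcodes were shared by any pair of libraries among kept cells. Clusters were named from marker lists as stage 0-like (the earliest iNKT precursors), cycling-like, iNKT2-like, iNKT17-like and iNKT1-like, and 19.5% to 22.9% of the cells of each library stayed unnamed. Levels are given as CPM, counts per 1000000 UMIs of the summed cells of a class in a library, on totals scaled by edgeR's TMM factors, and the 20 sums held 775828 to 17278665 UMIs. Sums per class cannot tell fewer expressing cells from less RNA per cell. Hivep3 itself was counted at 38.5 and 36.4 CPM in the C57BL/6 libraries and at 101 and 68.0 CPM in the Hivep3-/- libraries. The sources used here do not give the removed part of the gene, and a 5' count outside it does not check the genotype. C57BL/6 replicate 1 held 14609 UMIs of Xist in kept cells against 3 to 25 in the other libraries, which held 3568 to 4879 UMIs of 4 Y-linked genes. Thus 1 wild-type library differed in sex from the other 3 libraries. C57BL/6 replicate 2 went against the study's description of the wild-type mice of this experiment as female, although its methods state for the mice in general that both sexes were used.

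Bcl2 was high in stage 0-like and iNKT1-like cells and low in the classes between them. In stage 0-like cells it was counted at 350 and 295 CPM in the C57BL/6 libraries and at 294 and 171 CPM in the Hivep3-/- libraries. In iNKT1-like cells it reached 274 and 231 CPM in C57BL/6 and 263 and 256 CPM in Hivep3-/-. In cycling-like cells it stood at 39.6 and 26.9 CPM in C57BL/6 and at 64.2 and 56.1 CPM in Hivep3-/-. The genotypes did not overlap in cycling-like cells, and both Hivep3-/- libraries were the higher ones. The same order held in iNKT2-like cells, at 23.6 and 20.4 CPM in C57BL/6 against 49.8 and 36.9 CPM in Hivep3-/-. The lowest levels in every library were those of iNKT17-like cells, 13.1 and 6.51 CPM in C57BL/6 and 15.5 and 21.5 CPM in Hivep3-/-, from 7 to 24 UMIs. Stage 0-like cells were above iNKT2-like cells by 2.18 to 3.83 on the log2 scale in the 4 libraries. They were above iNKT1-like cells in 3 of 4 libraries only, with Hivep3-/- replicate 2 the exception. The libraries of these neighbours in the order did not overlap in C57BL/6 and overlapped in Hivep3-/-. No test was made between classes, since classes are clusters of the same cells.

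The stage 0-like class was not uniform for Bcl2. At a clustering resolution of 1.2 it fell into a cluster of 711 cells and one of 559 cells whose leading genes were Cd24a, Cd8b1 and Dntt, of which Cd8b1 encodes a chain of CD8 and Dntt an enzyme of receptor gene rearrangement. On unscaled totals Bcl2 was at 565, 598, 677 and 427 CPM in the Cd8b1-bearing cluster of C57BL/6 replicates 1 and 2 and Hivep3-/- replicates 1 and 2. In the other cluster it was at 343, 299, 278 and 138 CPM, lower in every library. Bcl2l11 followed the same split, at 42.9, 8.55, 28.4 and 32.6 CPM in the Cd8b1-bearing cluster (1 UMI in C57BL/6 replicate 2) and at 0.780 to 6.68 CPM in the other one. The Cd8b1-bearing cells were shallower, with a median of 2678 UMIs against 7467. Cd8b1 itself stood at 149 to 295 CPM in the one and at 2.34 to 11.3 CPM in the other. Rag1 stood at 7.09 to 28.8 CPM in the Cd8b1-bearing cluster, from 3 to 15 UMIs per library, and had 0 UMIs in the other one. The stage 0-like levels take in both kinds of cells. Whether the Cd8b1-bearing cells were iNKT precursors was not tested.

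**Figure D1:**
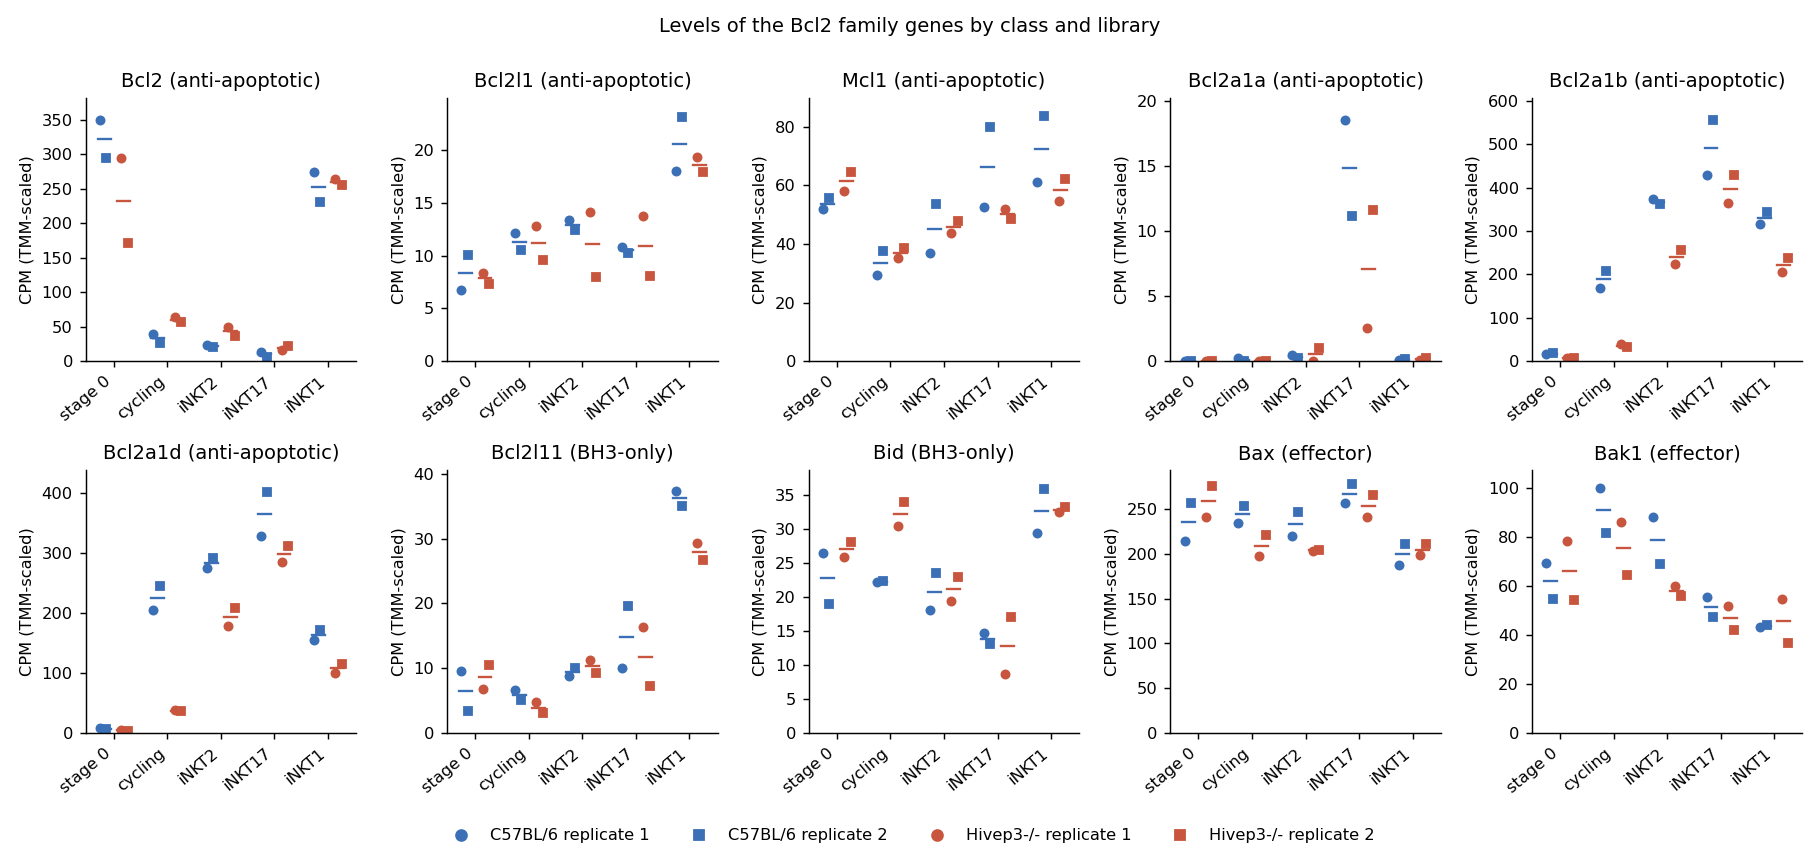
Level of each gene (y axis, CPM on TMM-scaled totals, from 0) in 5 classes (x axis), with 1 point per library, circles for replicate 1, squares for replicate 2 and bars for the mean of the 2 libraries of a genotype. Bcl2 is high at both ends of the order, Bcl2a1b and Bcl2a1d are near 0 in stage 0-like cells, and in cycling-like cells both Hivep3-/- libraries lie far below both C57BL/6 libraries for these 2 copies.

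Bcl2l1, which encodes BCL-XL, was a low transcript throughout. It was highest in iNKT1-like cells of every library, at 18.0 and 23.2 CPM in C57BL/6 and 19.3 and 17.9 CPM in Hivep3-/-, and lay between 6.77 and 14.2 CPM in all other classes. Its level was higher in iNKT1-like than in stage 0-like cells by 1.11 to 1.29 on the log2 scale in the 4 libraries.

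Mcl1, encoding the short-lived guardian MCL-1, was lowest in cycling-like cells of all 4 libraries, at 29.3 and 37.4 CPM in C57BL/6 and 35.2 and 38.8 CPM in Hivep3-/-. In iNKT1-like cells it was at 61.1 and 83.6 CPM in C57BL/6 and 54.6 and 62.0 CPM in Hivep3-/-. C57BL/6 replicate 2 gave the higher Mcl1 value of its genotype in all 5 classes. In stage 0-like cells it was at 51.9 and 55.7 CPM in C57BL/6 and at 58.2 and 64.6 CPM in Hivep3-/-, with no overlap. Whether stage 0-like or iNKT1-like cells came first in the order depended on scaling, with 2 of 4 libraries higher in stage 0-like cells on scaled totals and 3 of 4 on unscaled totals.

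The A1 copies ran in the opposite way to Bcl2 at the start of the order. In stage 0-like cells Bcl2a1b was at 15.8 and 18.9 CPM in C57BL/6 and at 8.08 and 7.29 CPM in Hivep3-/-, from 17 to 28 UMIs per library. In iNKT17-like cells it was at 429 and 555 CPM in C57BL/6 and 365 and 429 CPM in Hivep3-/-, the highest class of every library. The level in stage 0-like minus that in iNKT2-like cells was -4.96 to -4.18 for Bcl2a1b and -5.48 to -4.87 for Bcl2a1d on the log2 scale. In iNKT2-like cells Bcl2a1b reached 374 and 361 CPM in C57BL/6 and 224 and 257 CPM in Hivep3-/-. In iNKT1-like cells it was at 315 and 344 CPM in C57BL/6 and 205 and 238 CPM in Hivep3-/-. Both Hivep3-/- libraries were below both C57BL/6 libraries in these 2 classes.

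Bcl2a1d was highest in iNKT17-like cells too, at 329 and 402 CPM in C57BL/6 and 286 and 312 CPM in Hivep3-/-. Stage 0-like cells had little of it, at 8.46 and 5.57 CPM in C57BL/6 and 3.88 and 3.82 CPM in Hivep3-/-. In iNKT1-like cells it was lower than in iNKT2-like cells in all 4 libraries, at 155 and 172 CPM in C57BL/6 and 100 and 115 CPM in Hivep3-/-. The ratio of the 2 copies differed between classes. Bcl2a1b had 2.01 to 2.08 UMIs per Bcl2a1d UMI in iNKT1-like cells of the 4 libraries, 1.23 to 1.36 in iNKT2-like cells and 0.820 to 1.02 in cycling-like cells. This ratio is read between classes only and is no comparison of the levels of the copies, since reads that fit both could be left out or split.

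Bcl2a1a had its highest level in iNKT17-like cells, which held 52 of its UMIs. There it had 24 and 12 UMIs in C57BL/6 and 3 and 13 in Hivep3-/-, or 18.5, 11.2, 2.59 and 11.7 CPM. Of the 7266609 UMIs of stage 0-like cells 0 were assigned to it, which allows a level of up to 0.413 CPM. The other 3 classes held 3, 10 and 7 UMIs in all, in cycling-like, iNKT2-like and iNKT1-like cells. Bcl2a1b and Bcl2a1d were highest in iNKT17-like cells too. In C57BL/6 the iNKT17-like sums held 36 UMIs of Bcl2a1a beside 1152 of Bcl2a1b and 858 of Bcl2a1d. The iNKT2-like sums held 6 beside 5659 and 4266, and the iNKT1-like sums 2 beside 5288 and 2619. Whether reads were assigned among near-identical copies was not tested.

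Bcl2l11, the gene of BIM, was highest in iNKT1-like cells of every library. It was at 37.3 and 35.1 CPM there in C57BL/6 and at 29.3 and 26.7 CPM in Hivep3-/-, with both Hivep3-/- libraries lower. In cycling-like cells it was at 6.63 and 5.10 CPM in C57BL/6 and at 4.77 and 3.0 CPM in Hivep3-/-. Cycling-like minus iNKT1-like levels were -2.79 to -2.33 on the log2 scale. The UMIs of Bcl2 and Bcl2l11 thus did not move in parallel between classes. There were 16.4 to 88.3 UMIs of Bcl2 per UMI of Bcl2l11 in stage 0-like cells, 2.02 to 4.42 in iNKT2-like cells and 6.6 to 9.59 in iNKT1-like cells. The value of 88.3 rested on 3 UMIs of Bcl2l11 in C57BL/6 replicate 2, and the other stage 0-like ratios on 17 to 30. In iNKT17-like cells the ratio was lowest, 0.333 to 3, and it rested on 7 to 24 UMIs of Bcl2 and 8 to 21 of Bcl2l11. In cycling-like cells it was 5.98 and 5.28 in C57BL/6 against 13.5 and 18.7 in Hivep3-/-, with no overlap, from 13 to 89 UMIs of Bcl2l11.

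**Figure D2:**
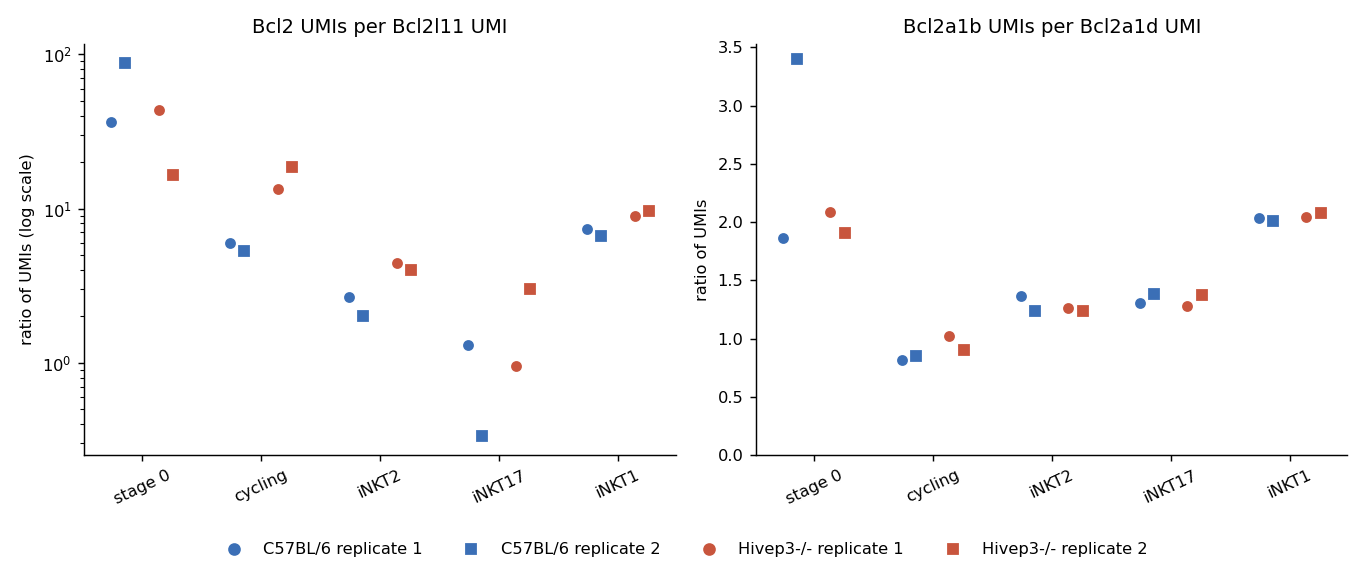
Left, UMIs of Bcl2 per UMI of Bcl2l11 (log scale), and right, UMIs of Bcl2a1b per UMI of Bcl2a1d (linear scale), with 1 point per library in each of 5 classes. The left ratio is lowest in iNKT17-like cells and highest in stage 0-like cells in 3 of 4 libraries, and the right ratio lies between 2.01 and 2.08 in iNKT1-like cells of all 4 libraries.

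Bid, whose protein links death receptors to mitochondria once it is cleaved, was lowest in iNKT17-like cells of every library, at 14.7 and 13.03 CPM in C57BL/6 and 8.63 and 17.0 CPM in Hivep3-/-. In cycling-like cells it was at 22.2 and 22.3 CPM in C57BL/6 and at 30.4 and 34.0 CPM in Hivep3-/-, with no overlap. In iNKT1-like cells it was at 29.4 to 35.8 CPM and the genotypes overlapped.

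Bax and Bak1 encode the proteins that form the pores. Bax lay between 188 and 278 CPM in all 20 sums, with iNKT1-like cells below iNKT17-like cells by 0.27 to 0.45 on the log2 scale. Bak1 was highest in cycling-like cells of all 4 libraries, at 100.1 and 81.5 CPM in C57BL/6 and 86.2 and 64.5 CPM in Hivep3-/-. It was at 43.2 and 44.0 CPM in iNKT1-like cells of C57BL/6 and at 54.9 and 36.8 CPM in those of Hivep3-/-. Bak1 was higher in cycling-like than in iNKT1-like cells by 0.64 to 1.19 on the log2 scale. On unscaled totals Bak1 was highest in cycling-like cells in 3 of 4 libraries.

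Genotypes were compared within each class with edgeR's quasi-likelihood test and Benjamini-Hochberg adjustment over all genes tested, on sums of 2 libraries per genotype. Of the 9 members tested in cycling-like cells 2 fell in Hivep3-/- at an adjusted p under 0.05. This compares with 3.69% of all 10176 genes tested there, 1.93% lower and 1.76% higher in Hivep3-/-. The 2 members are near-identical copies that can share reads, so their count is not one of separate genes. No member was called in stage 0-like (background 0.428%), iNKT2-like (0.394%), iNKT17-like (0.0919%) or iNKT1-like cells (0.62%). At an unadjusted p under 0.05 there were 1, 4, 0 and 3 members in these 4 classes, where all genes gave 8.52%, 9.52%, 5.63% and 7.95%. Bcl2a1a was tested in iNKT17-like cells only. All genes split into 0.338% lower and 0.0902% higher in stage 0-like, 0.29% and 0.104% in iNKT2-like, 0.0394% and 0.0525% in iNKT17-like and 0.141% and 0.479% in iNKT1-like cells. The libraries of the genotypes did not overlap for 6 of 9 members tested in cycling-like (background 49%), 5 of 9 in iNKT2-like (40.8%) and 4 of 9 in stage 0-like cells (38.7%). The same count was 4 of 10 in iNKT17-like (35.1%) and 3 of 9 in iNKT1-like cells (37%). The median difference over the members tested was -0.17 on the log2 scale in cycling-like cells, against 0.02 over all genes.

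The 2 genes called in cycling-like cells were Bcl2a1b and Bcl2a1d. Bcl2a1b was at 168 and 208 CPM in C57BL/6 and at 38.9 and 32.2 CPM in Hivep3-/-. Bcl2a1d was at 205 and 246 CPM in C57BL/6 and at 38.1 and 35.6 CPM in Hivep3-/-. Both Hivep3-/- libraries lay far below both C57BL/6 libraries. Bcl2a1b fell to 19.5% of its C57BL/6 level, a log2 difference of -2.36 (SE 0.188, adjusted p = 0.00145). Bcl2a1d fell to 17.0%, a log2 difference of -2.56 (SE 0.163, adjusted p = 0.00074). With the 3 copies summed the difference was -2.46 (SE 0.162, adjusted p = 0.000812), a sum that no split of reads among the 3 copies can change. The study singles out both genes, so their direction here is no independent evidence, and both were kept out of the clustering.

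Both copies were called in each of the 3 cycling-like clusters tested apart, where 3.32%, 2.05% and 3.62% of genes were called. In the cluster led by DNA replication genes (Cdc6, Mcm3) the differences were -2.30 for Bcl2a1b and -2.45 for Bcl2a1d, in that led by mitotic genes (Ccnb2, Cenpa) -2.05 and -2.22, and in that led by histone genes -2.54 and -2.85. An unnamed cluster of 872 cells, led by Htra3, Tnni1 and Klrb1a and with 34 cells in C57BL/6 replicate 2, was called for both copies too (background 2.87%). Bcl2a1b there was at 130 and 162 CPM in C57BL/6 and at 34.2 and 23.8 CPM in Hivep3-/- on unscaled totals, a difference of -2.40 (SE 0.220, adjusted p = 0.000248). Bcl2a1d was at 85.5 and 63.3 CPM against 18.2 and 10.8 CPM, a difference of -2.55 (SE 0.274, adjusted p = 0.000682). In all 12 clusters tested apart both Hivep3-/- libraries lay below both C57BL/6 libraries for both copies. The 12 clusters hold cells of the same mice, so they are not 12 separate observations. Among genes of at least 20 CPM this order was met by 10.9% to 17.2% of genes, depending on the cluster. It was 15.6% in the iNKT2-like cluster and 11.4% in the iNKT1-like cluster led by Gzmb. Both copies averaged under 20 CPM in the stage 0-like cluster, so its share at that limit leaves them out. Over all genes tested per class the share was 28.3% for cycling-like, 20.9% for iNKT2-like and 15.2% for stage 0-like cells. The iNKT17-like class and the iNKT1-like class each gave 16.6%.

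**Figure D3:**
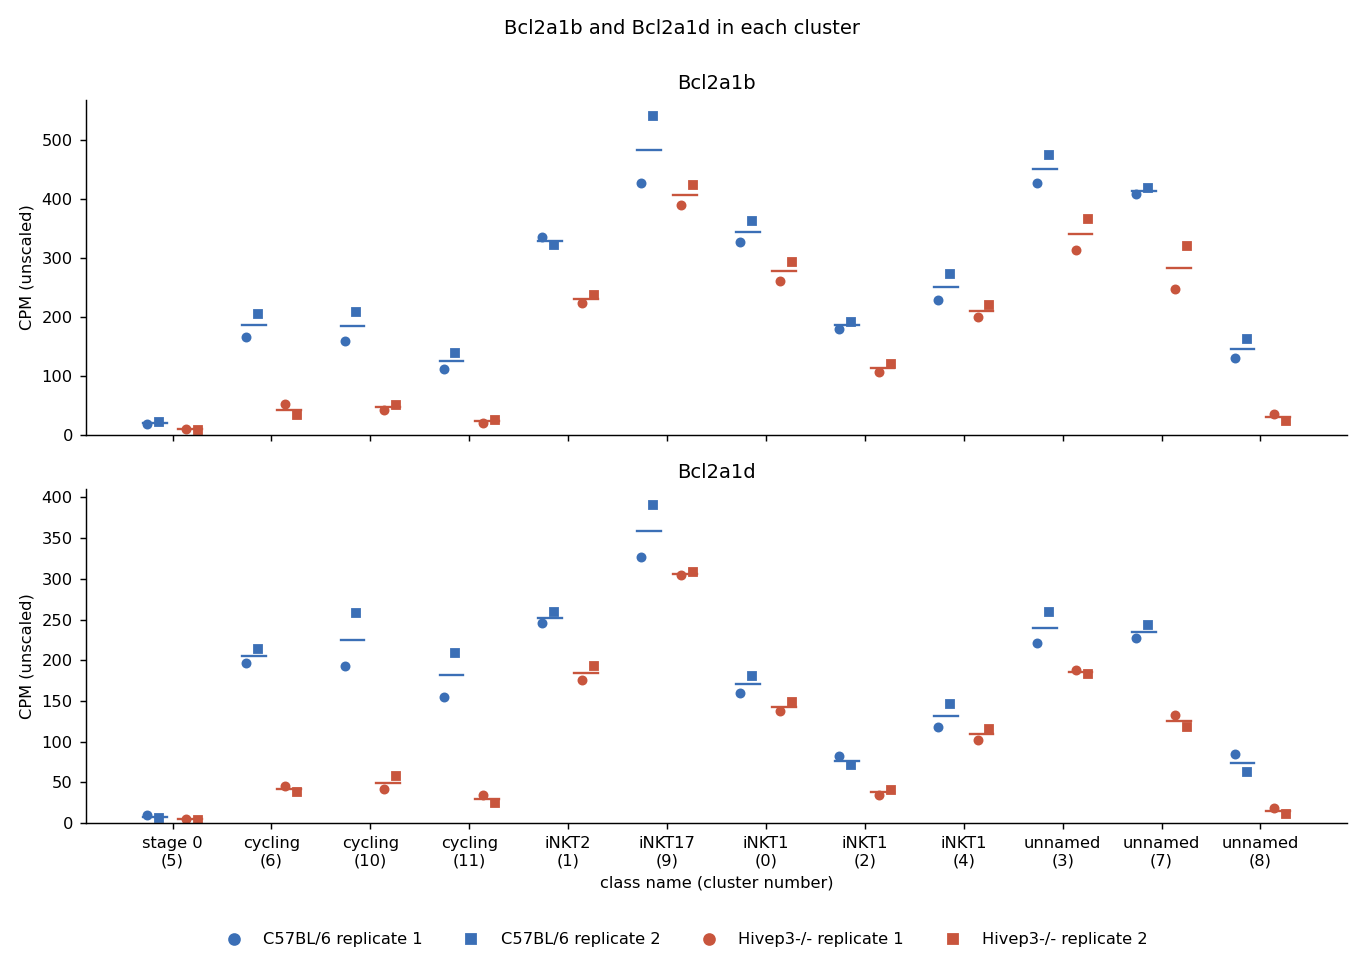
Level of Bcl2a1b (top) and Bcl2a1d (bottom) in each of 12 clusters (x axis, class name and cluster number), in CPM on unscaled totals from 0, with 1 point per library and bars for the mean of a genotype. In the 3 cycling-like clusters and in unnamed cluster 8 the Hivep3-/- points are at 10.8 to 58.0 CPM and the C57BL/6 points at 63.3 to 258 CPM.

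Marker levels in cycling-like cells differed between genotypes. The summed level of 9 iNKT2 markers was 1788 to 1841 CPM in C57BL/6 and 877 to 969 CPM in Hivep3-/-. It was also lower in iNKT2-like cells, at 2481 to 2570 against 1817 to 1844 CPM, and in iNKT1-like cells, at 515 to 577 against 288 to 323 CPM. In stage 0-like cells it was 1064 to 1124 against 652 to 703 CPM, and in iNKT17-like cells the genotypes overlapped. Of these markers the study names Zbtb16, Plac8, Icos, Cd4 and Il4 as lower in Hivep3-/- cells. In cycling-like cells the 21 iNKT1 markers summed to 1249 to 1262 CPM in C57BL/6 and 2336 to 2833 CPM in Hivep3-/-. The 14 stage 0 markers summed to 1310 to 1555 against 2036 to 2364 CPM there. The cycling-like Hivep3-/- sums for both copies were lower than those of the iNKT2-like and iNKT1-like cells of the same libraries and above those of stage 0-like cells. Whether the make-up of the class differed, and what part it had in the difference of the 2 copies, was not tested. Without correction between libraries before clustering, which changes the cells of the class, the differences were -1.51 for Bcl2a1b and -1.65 for Bcl2a1d and both were still called.

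In the other 4 named classes the differences of the 2 copies were smaller and were not called. Bcl2a1b differed by -0.60 (SE 0.128, adjusted p = 0.125) in iNKT2-like cells and by -0.59 (SE 0.139, adjusted p = 0.195) in iNKT1-like cells. Bcl2a1d differed by -0.54 (SE 0.133, adjusted p = 0.197) and -0.62 (SE 0.136, adjusted p = 0.154) in the same classes, and in iNKT17-like cells the values were -0.32 and -0.30. In stage 0-like cells Bcl2a1b differed by -1.19 (SE 0.347, adjusted p = 0.29) at the low counts given above. The iNKT1-like cluster led by Ccl5 and Gzma held 16.5% of that class in C57BL/6 and 31.7% in Hivep3-/-. Within that cluster Bcl2a1d was at 82.8 and 71.2 CPM in C57BL/6 and 34.5 and 41.2 CPM in Hivep3-/- on unscaled totals, a called difference of -1.08 (SE 0.198, adjusted p = 0.0441, background 0.41%). In the other large iNKT1-like clusters it differed by -0.34 and -0.36 and was not called. In an unnamed cluster of 979 cells led by interferon response genes Bcl2a1d was at 227 and 243 CPM in C57BL/6 and 133 and 118 CPM in Hivep3-/-, a called difference of -0.95 (SE 0.182, adjusted p = 0.0435, background 0.44%). Bcl2a1b differed there by -0.59 (adjusted p = 0.383). Over all kept cells of a library Bcl2a1d was called as well, at a difference of -1.08 (SE 0.127, adjusted p = 0.0235, background 0.765%), while Bcl2a1b differed by -0.77 (SE 0.137, adjusted p = 0.0721).

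Bcl2 differed in the opposite direction in the classes where it was low, without a call in the edgeR test used throughout. The difference was 0.90 (SE 0.219, adjusted p = 0.0773) in cycling-like, 0.98 (SE 0.201, adjusted p = 0.114) in iNKT2-like and 0.86 (SE 0.423, adjusted p = 0.909) in iNKT17-like cells. In iNKT1-like cells it was 0.02 (SE 0.137, adjusted p = 0.988). Among stage 0-like cells it was -0.52 (SE 0.234, adjusted p = 0.589), where Hivep3-/- replicate 1 lay at 294 CPM beside the C57BL/6 libraries and Hivep3-/- replicate 2 at 171 CPM. Without Hivep3-/- replicate 1 it was -0.98 and called (adjusted p = 0.00123), with the lone library assumed to vary like the C57BL/6 libraries. In the whole cycling-like class Bcl2 was called with DESeq2 (0.90, adjusted p = 0.0371) and without a low-count filter (0.87, adjusted p = 0.000614). It was also called with the mouse number as a block (0.93, adjusted p = 0.000118), and under none of the others of the 14 alternatives. In the Cdc6-bearing cycling-like cluster alone Bcl2 rose by 1.09 (SE 0.183, adjusted p = 0.0175, background 3.32%). It was not called in the cycling-like cluster led by mitotic genes (0.73, SE 0.333, adjusted p = 0.353) or in that led by histone genes (0.52, SE 0.287, adjusted p = 0.435). In iNKT2-like cells it was called without C57BL/6 replicate 1 (adjusted p = 0.0146), without C57BL/6 replicate 2 (0.0321) and without Hivep3-/- replicate 2 (0.0394).

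Of the remaining members none was called in any class. Bid differed by 0.59 (SE 0.180, adjusted p = 0.136) in cycling-like cells, and Bcl2l11 by -0.39 (SE 0.147, adjusted p = 0.539) in iNKT1-like cells. Bak1 differed by -0.44 (SE 0.168, adjusted p = 0.45) in iNKT2-like cells, where it was at 88.3 and 69.0 CPM in C57BL/6 and 59.8 and 55.7 CPM in Hivep3-/-. Bax stayed within -0.18 and 0.09 in the 5 classes, with SE of 0.121 to 0.169, and Bcl2l1 within -0.22 and 0.05, with SE of 0.180 to 0.447.

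**Figure D4:**
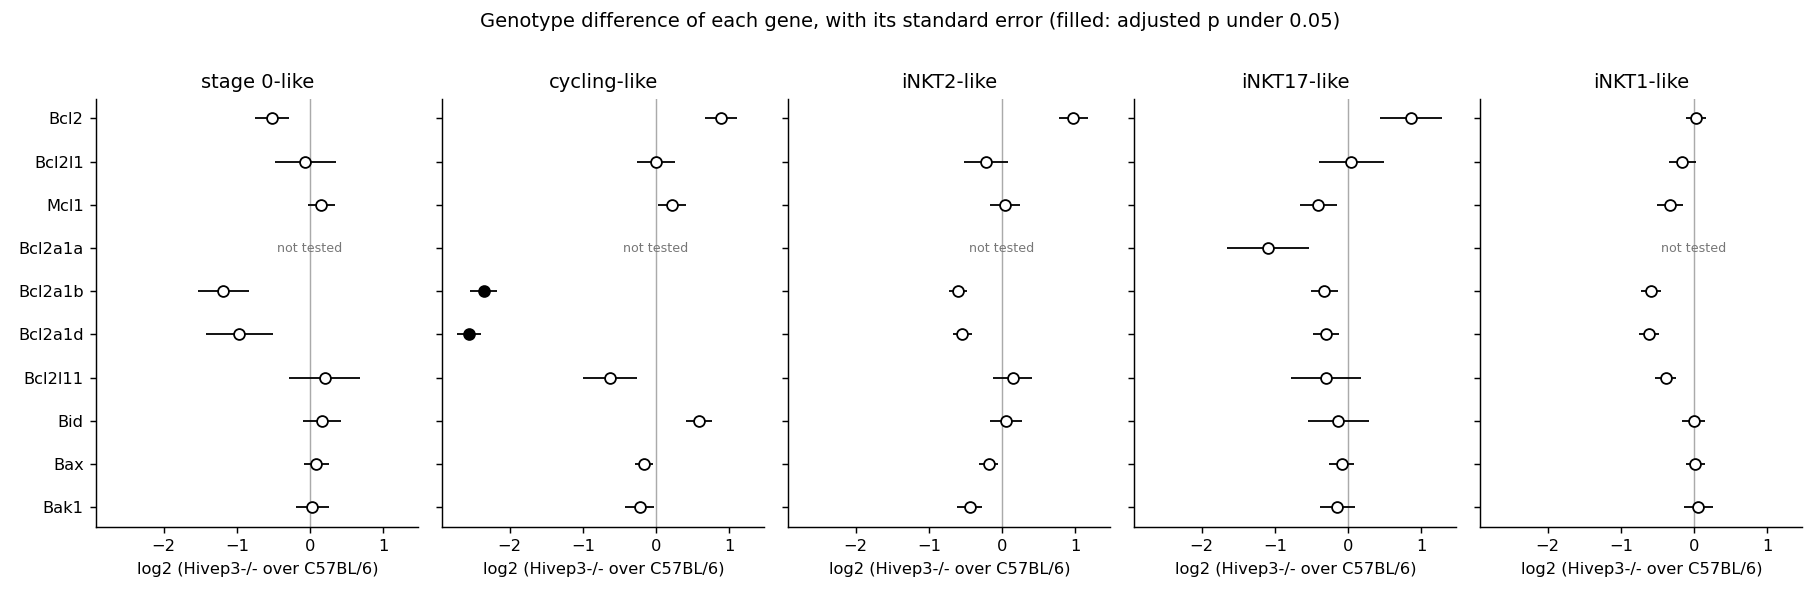
Log2 difference of Hivep3-/- over C57BL/6 (x axis) for each gene (y axis) in 5 classes, with the standard error from the fit and filled points where the adjusted p was under 0.05. The filled points are Bcl2a1b at -2.36 and Bcl2a1d at -2.56 in cycling-like cells.

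Whether the genotype difference varied between classes was tested in 1 model over the 20 sums, with library as a block and iNKT1-like cells as the reference. In cycling-like cells 4 of 10 members differed from iNKT1-like cells at an adjusted p under 0.05. This compares with 9.9% of all 11096 genes, 6.08% more negative and 3.82% more positive. The 4 include the near-identical copies Bcl2a1b and Bcl2a1d, which are not separate genes for such a count. The difference was more negative there by 1.83 for Bcl2a1b (log2 -1.83, SE 0.148, adjusted p = 8.17e-09) and by 2.0 for Bcl2a1d (log2 -2.0, SE 0.128, adjusted p = 3.43e-10). It was more positive by 0.83 for Bcl2 (SE 0.186, adjusted p = 0.0043) and by 0.48 for Mcl1 (SE 0.142, adjusted p = 0.0322). The call of Mcl1 was lost when any 1 of the 4 libraries was left out (adjusted p 0.122 to 0.164), and that of Bcl2 without C57BL/6 replicate 2 (0.0655). Without correction between libraries the values for Bcl2a1b and Bcl2a1d were -0.74 and -0.80 and still called.

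In iNKT2-like cells 1 of 10 members was called against iNKT1-like cells (background 2.56%, of which 1.3% more negative and 1.26% more positive). This was Bcl2, whose difference was higher by 0.95 (SE 0.204, adjusted p = 0.00864). The call was lost without C57BL/6 replicate 1 (adjusted p = 0.238) or replicate 2 (0.0528). Without correction between libraries the term was 0.53 (adjusted p = 0.159). For Bcl2a1b and Bcl2a1d the same term was -0.04 (SE 0.127) and 0.06 (SE 0.112) in iNKT2-like cells. No member was called in stage 0-like (background 2.26%, 1.22% and 1.05% by direction) or iNKT17-like cells (0.586%, 0.27% and 0.315%), with 2 and 1 members at an unadjusted p under 0.05.

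The wider cell death machinery was followed through a list of 72 genes in 7 arms, 62 of which were tested in cycling-like cells. There 5 were called, 4 higher and 1 lower in Hivep3-/- (8.06% of the 62, background 3.69%), and 0 of 54 to 64 were called in each of the other 4 classes. The genes of this list were fitted under the main settings only, so these calls were not tried under the alternatives. The called genes belonged to 2 arms. Among the other BH3-only genes, Bbc3 (encoding PUMA) was at 15.1 and 12.3 CPM in C57BL/6 and 24.9 and 30.6 CPM in Hivep3-/-, a rise of 1.07 (SE 0.210, adjusted p = 0.0399). Pmaip1 (encoding NOXA, a partner of MCL-1) rose from 1.19 and 1.05 CPM to 4.03 and 5.99 CPM, a difference of 2.21 (SE 0.408, adjusted p = 0.0339). Levels this low rest on few counts. Bik, another BH3-only gene, fell from 13.3 and 12.5 CPM to 3.67 and 5.59 CPM, a difference of -1.37 (SE 0.282, adjusted p = 0.0462).

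Among 5 tested cytokine receptor genes 2 rose in cycling-like cells. Il2rb, the beta chain of the IL-2 and IL-15 receptors, was at 141 and 137 CPM in C57BL/6 and 442 and 359 CPM in Hivep3-/-, a rise of 1.59 (SE 0.150, adjusted p = 0.00289). It is also an iNKT1 marker of the list used for naming, whose summed level moved in the same direction as given above. Il4ra, the alpha chain of the IL-4 receptor, rose from 2.83 and 1.58 CPM to 10.6 and 14.4 CPM, a difference of 2.48 (SE 0.349, adjusted p = 0.0133). Of the apoptosome, caspase and inhibitor arm 14 of 14 genes were tested in cycling-like cells and 0 were called, and the same held for 10 death receptor, 7 p53, 13 NF-kB and 4 MCL-1 and BAK handling genes. The median difference of the whole list was 0.03 there, against 0.02 over all genes.

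Genes whose levels ran most alike over the 20 sums were found for the 7 members of at least 20 CPM on average, as Pearson's r of log2(CPM + 1) among all genes of that level. For Bcl2 these were Cd2 (0.92) and Smyd3 (0.89). For Bcl2a1b they were Tmem64 and Podnl1 (both 0.98) and for Bcl2a1d Ly6e and Ly6a (both 0.98), with 0.98 between the 2 copies themselves. Bak1 ran with Atic (0.89) and Hsp90ab1 (0.88), Bax with Ap3s1 (0.85) and Copz1 (0.80), Mcl1 with Zmym5 (0.83) and Rapgef6 (0.78), and Bid with Atp1b1 (0.82) and Klra1 (0.81). The sums share 4 libraries, so these values describe likeness and carry no test. Between Bcl2 and Bcl2l11 r was 0.21.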

How the data were processed

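The authors deposited raw UMI counts per gene and cell barcode, made with Cell Ranger 3.1.0 on mm10 from droplet 5' libraries, with Seurat 3.1.4 also named in the submitters' processing notes; no normalization was applied to the deposited counts. Kept cells had from 500 to under 4100 genes, 1000 or more UMIs and a mitochondrial share below 6%. Doublet scores (Scrublet in scanpy 1.11.5), computed on the kept cells, marked 0, 4, 1 and 5 cells. These calls are too few to judge whether the caller had worked, and no cell was removed. Cells were clustered with Seurat 5.3.0 (2000 variable genes, 30 components, mutual nearest neighbour correction, resolution 0.8), leaving out the members, the cell death list, 26 genes the study names, Hivep3, genes of sex and T cell receptor segments. A cluster was named when 2 or more markers of a class stood among its top 20 genes, a rule set after the data were seen. These names are not the study's, which can make values differ. UMIs were summed per library and class and tested with edgeR 4.0.16 (filterByExpr, TMM, quasi-likelihood, two-sided, Benjamini-Hochberg). The code was run on simulated counts that had the same dispersion for every gene and no effect of mouse or sex. That run cannot give the error rate in these data. Counting error shrinks with depth and is largest in stage 0-like and iNKT17-like sums. With 2 mice per genotype an exact permutation test cannot give p below 0.333. The members and lists were chosen with earlier results of these data known. Named were the 10 members, called genes of the cell death list and the 2 genes most like each member. Alternatives were DESeq2 1.42.0 and its size factors, no low-count filter, each library left out, the mouse number as a block, 2 other resolutions, no correction, no upper limit on genes, the 5% of highest doublet scores removed, the left-out genes put back and the copies summed. Clusters tested apart and unscaled totals were added after the data were seen.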

Additional observations from a re-analysis of the deposited data

Results flagged for a closer look

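For Bcl2, Mcl1, Bcl2a1b and Bcl2a1d in cycling-like cells, and for Bcl2 in iNKT2-like cells, the genotype difference was not the one seen in iNKT1-like cells, as tested by an interaction in edgeR's quasi-likelihood model. The terms were -1.83 for Bcl2a1b, -2.0 for Bcl2a1d, 0.83 for Bcl2 and 0.48 for Mcl1 in cycling-like cells and 0.95 for Bcl2 in iNKT2-like cells, on the log2 scale. The terms of Bcl2a1b and Bcl2a1d were called under all 13 alternatives, that of Bcl2 in cycling-like cells under 12, that of Bcl2 in iNKT2-like cells under 9 and that of Mcl1 under 7. No explanation of these differences was tested.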

How the results depend on the processing

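In cycling-like cells Bcl2a1b and Bcl2a1d were called under all 14 alternatives chosen at the outset, with differences of -2.78 to -1.51 and -2.70 to -1.65 and adjusted p of at most 0.0176 and 0.00837. Over 1169 alternative values of single members 11 lost and 32 gained a call, 0 called values changed sign, and 92 values that were called in neither fit did. Without a low-count filter the members called were 3 in iNKT2-like and 2 in iNKT1-like cells, and the interaction called 1 in stage 0-like and 2 in iNKT2-like cells. Putting the left-out genes back, which moved cells of the Htra3-bearing cluster into stage 0-like cells, gave 2 in stage 0-like cells and 2 in their interaction. That interaction gave 1 (Bcl2) at resolution 0.4, 1 without correction between libraries and 1 without the upper limit on genes. In the cycling-like interaction Bid gained a call at resolutions 0.4 and 1.2 and without the upper limit (adjusted p 0.0384, 0.0115 and 0.0366), Bax without correction and without the upper limit (0.0339 and 0.0267), and Mcl1 lost its call with DESeq2 (0.0539) and without a filter (0.077). Without correction the interaction called 0 in iNKT2-like and 1 in iNKT17-like cells, and DESeq2 called 0 in iNKT2-like cells (adjusted p of Bcl2 0.0516). Leaving out 1 library gave 0 to 1 members in stage 0-like and in iNKT2-like cells, and for the interactions 0 to 1 in stage 0-like, 2 to 3 in cycling-like and 0 to 2 in iNKT2-like cells. Among iNKT1-like clusters tested apart, the Ccl5-bearing one called 1. The cause of these changes was not tested. On unscaled totals 5 members had the same highest class in all 4 libraries, against 6 on scaled totals. Mouse numbers are shared between genotypes but name different mice. The difference of replicate 1 minus replicate 2 in C57BL/6 was correlated over genes with the same difference in Hivep3-/-. The correlation was 0.186 to 0.241 in the 5 classes. The labels give no batch, and whether same-numbered libraries shared one was not tested. With the replicate block 3 members were called in iNKT2-like cells (Bcl2, Bcl2a1b, Bcl2a1d) and 3 in cycling-like cells. Depth limits Bcl2a1a, Bcl2l1 and Bcl2l11, Pmaip1 and Il4ra of the cell death list, and all stage 0-like and iNKT17-like values.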
